A study of Mus musculus with 12 samples.

Results

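The genes described here are the mouse laminin chains, the nidogens and the integrin chains, 39 of the 25887 genes measured in dermal papilla cells. They were chosen by gene symbol, as every numbered Lama, Lamb and Lamc gene, both Nid genes and every Itga and Itgb gene. The rule uses no measured value, but it was chosen with earlier results of these data known. They comprise 5 laminin alpha, 3 laminin beta and 3 laminin gamma chains, 2 nidogens and 26 integrin chains, and each of the 39 had a read in at least 1 library.

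Cells of the dermal papilla, a cluster of mesenchymal cells that instructs the hair follicle from below, were sorted by FACS from mice and their total RNA was sequenced after removal of ribosomal RNA. Smo* mice carried a gain-of-function form of Smo, the membrane protein that transduces Hedgehog signals, specific to the dermal papilla per the series title, and WT mice were wild type. At postnatal day 20 (P20) there were 3 Smo* and 3 WT libraries from females in telogen, the resting phase of the hair cycle. At postnatal day 28 (P28) there were 3 Smo* libraries from males labelled anagen (I-III) and 3 WT libraries from males labelled Anagen VI, so genotype and hair stage differ together at P28, and age, sex and hair stage differ together between P20 and P28. The driver of the Smo* allele and the sort gate are not given in the sources used here. The labels do not say whether each library is from its own animal, and p-values cover only the spread between libraries as deposited.

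Libraries held between 36323058 and 48926831 reads on genes. Smo itself lay between 6351 and 7528 normalized counts in the P20 Smo* libraries and between 5037 and 5225 in P20 WT, and between 7487 and 8694 in P28 Smo* and between 5418 and 6144 in P28 WT. Gli1, a direct target of Hedgehog signalling, had at least 3665 in every Smo* library of either age and at most 2245 in any WT library. The 14 dermal papilla marker genes listed for these cells were all detected in every group. P28 Smo* replicate 3 stood apart: it had reads on 15453 genes against at least 17337 in every other library, and its dermal papilla markers summed to 33882 normalized counts against 138334 and 214320 in the other P28 Smo* libraries. Its 5 adipocyte markers summed to 5117, against 797 and 362 in those libraries. Results that rest on it are given with and without it.

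A laminin is a secreted trimer of 1 alpha, 1 beta and 1 gamma chain, and laminin networks are the scaffold on which a basement membrane assembles. Nidogens bind the laminin gamma chain and collagen IV and so link both networks. Integrins are receptors on the cell surface made of 1 alpha and 1 beta chain, and the pairing sets whether they bind laminins, collagens or ligands with an RGD motif such as fibronectin. In the hair follicle a basement membrane separates the dermal papilla from the epithelium that it signals to.

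Laminin and nidogen RNA in these cells came mainly from 1 or 2 genes of each class. To compare genes, normalized counts were divided by the kilobases of exon of each gene, and each class was summed within a library. By this measure Lama2, the alpha chain of the laminins known from muscle and nerve, made up 67.8% ± 1.5 of the alpha chains in P20 Smo*, 60.1% ± 1.71 in P20 WT, 74.9% ± 7.14 in P28 Smo* and 69.2% ± 2.52 in P28 WT (SD, n = 3 each). Lama4, the alpha chain known from vessels and mesenchyme, supplied most of the remainder. Lamc1 and Lamc3 supplied most of the gamma chains, with mean shares of Lamc3 at 52.1% ± 2.59 in P20 Smo*, 49.9% ± 6.98 in P20 WT, 49.4% ± 21.1 in P28 Smo* and 49.6% ± 5.95 in P28 WT (SD, n = 3 each). The P28 Smo* mean rested on replicate 3, where Lamc3 held 26.5%, against 53.8% and 68.1% in replicates 1 and 2. Nid1 exceeded Nid2 in each library. Over all 12 libraries Nid1 had the highest mean of the 39 genes, 7637.5 normalized counts per kilobase, before Itgb1 with 4334.5, Lamc3 with 4217, Lamc1 with 3995 and Lamb2 with 3475. The ranges of Lamc3 and Lamc1 overlapped within every group. Read within libraries, Lamc3 exceeded Lamc1 throughout P20 Smo*, with shares of 51.4%, 49.9% and 55.0% against 48.3%, 49.7% and 44.7%. In each other group the order changed between libraries, so it is not resolved over all 12.

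**Figure D1:**
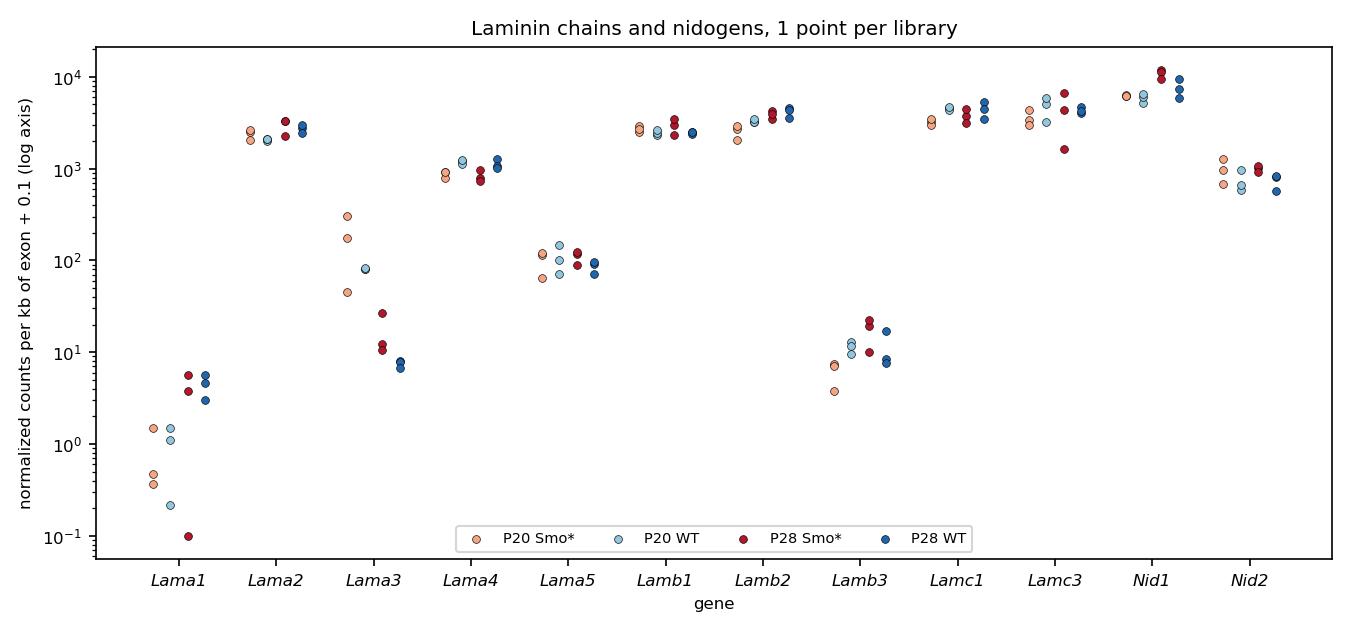
Normalized counts per kilobase of exon, plus 0.1 on a log axis, for laminin chain and nidogen genes, with 1 point per library and the 4 groups side by side. Lama1 has the lowest mean, Nid1, Lamc1, Lamc3, Lamb1, Lamb2 and Lama2 lie highest, and Lama3 is lower at P28 than at P20 in both genotypes.

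In telogen, at P20, no laminin or nidogen passed the test between Smo* and WT, but several were lower in every Smo* library. With limma on log2(value + 1) and Benjamini-Hochberg adjustment over all genes, 0 of the 12 laminin and nidogen genes tested passed the threshold of 0.05, against 0.696% of all genes tested. Of the 12, 5 had lower values in every Smo* than in every WT library, against 8.34% of all genes, 5 reached an unadjusted p under 0.05, and none was called by edgeR (0 of 12). Lamc1, the gamma chain of most laminins, had 26650, 24570 and 29059 normalized counts in the P20 Smo* libraries against 37640, 36246 and 38942 in the P20 WT libraries. The groups did not overlap, and the log2 fold change was -0.49 (SE 0.12, adjusted p = 0.137 by limma). Lama4 had 11031, 9498 and 10980 normalized counts in P20 Smo* against 14461, 13448 and 14987 in P20 WT. All its Smo* libraries were again lower, with a log2 fold change of -0.45 (SE 0.11, adjusted p = 0.146 by limma). Lamb2, the beta chain known from synapses and kidney, had 16410, 12505 and 17604 normalized counts in P20 Smo* against 19740, 19424 and 21377 in P20 WT, a log2 fold change of -0.39 (SE 0.15, adjusted p = 0.354 by limma). Lamb3, a partner chain of Lama3 in the laminin of epithelial anchoring, was scarce, with at most 84.3 normalized counts in any P20 library, and also had lower values in all P20 Smo* than in all P20 WT libraries (log2 fold change -0.95, SE 0.34, adjusted p = 0.336 by limma).

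Other laminins did not share this pattern at P20. Lama2 had 41266, 33160 and 42963 normalized counts in P20 Smo* against 32468, 34620 and 34311 in P20 WT, and the groups overlapped. Lamb1, the other widespread beta chain, had 28594, 24834 and 26968 in P20 Smo* against 22965, 24086 and 26301 in P20 WT, also with overlap. As shares the composition did separate: Lama2 made up 66.3% to 69.3% of the alpha chains in P20 Smo* against 58.8% to 62.0% in P20 WT, and Lamb1 48.4% to 54.9% of the beta chains in P20 Smo* against 41.6% to 43.1% in P20 WT. The two-sided exact permutation p was 0.1 for each, the smallest that 3 against 3 libraries allow. Lamc3, a gamma chain found in fewer tissues than Lamc1, had 20878, 18158 and 26306 normalized counts in P20 Smo* against 31084, 19531 and 35493 in P20 WT. Lama5, an alpha chain of epithelial basement membranes, had 1320, 740 and 1388 in P20 Smo* against 803, 1136 and 1681 in P20 WT. Both of these overlapped between genotypes. Nid1 had 43293, 43897 and 42768 in P20 Smo* against 35916, 41860 and 45396 in P20 WT, and Nid2 had 4999, 6541 and 3516 in P20 Smo* against 5034, 3042 and 3426 in P20 WT, with overlap for each.

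At P28 the laminins and nidogens again did not pass between Smo* and WT. Limma called 0 of 13, against 8.9% of all genes tested, with 3 at an unadjusted p under 0.05, edgeR called 0, and the authors' deposited table, which called 16.8% of its genes, called 2, Lama4 (adjusted p 0.0260 there) and Nid1 (adjusted p 0.0307 there). Lama4 had 9544, 8883 and 11729 normalized counts in the P28 Smo* libraries against 15388, 12932 and 12177 in P28 WT, so all 3 Smo* libraries were lower, as at P20. Its log2 fold change was -0.43 (SE 0.15, adjusted p = 0.127 by limma). Nid1 had 81879, 78415 and 64983 in P28 Smo* against 65922, 51605 and 40392 in P28 WT, where the lowest Smo* and the highest WT library overlapped, and its log2 fold change was 0.53 (SE 0.23, adjusted p = 0.190 by limma). Nid2 was higher in every Smo* library, with 5230, 5560 and 4708 normalized counts in P28 Smo* against 4236, 2918 and 4299 in P28 WT, and a log2 fold change of 0.46 (SE 0.17, adjusted p = 0.134 by limma).

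The abundant laminin chains overlapped between genotypes at P28. Lama2 had 53902, 54224 and 36699 normalized counts in P28 Smo* against 45238, 48998 and 40055 in P28 WT. Lamc1 had 30801, 25866 and 36852 in P28 Smo* against 44103, 36874 and 28968 in P28 WT. Lamc3 spread most, with 26678, 40954 and 9885 in P28 Smo* against 24738, 28790 and 25745 in P28 WT, its lowest value being that of P28 Smo* replicate 3. Lamb1 had 29467, 34547 and 23064 in P28 Smo* against 25090, 23838 and 24936 in P28 WT, Lamb2 had 25754, 21281 and 23740 in P28 Smo* against 27586, 26352 and 21820 in P28 WT, and Lama5 had 1321, 1020 and 1418 in P28 Smo* against 1048, 1097 and 809 in P28 WT. In none of these did all libraries of 1 genotype lie on 1 side.

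Between the ages, Lama3 was the laminin that fell, and it did so in both genotypes. Lama3, the alpha chain of the laminin that anchors epithelia to the dermis, had 131, 113 and 287 normalized counts in P28 Smo* against 1873, 483 and 3240 in P20 Smo*. In WT it had 84.5, 83.1 and 71.8 at P28 against 866, 873 and 895 at P20. The log2 fold change of P28 over P20 was -3.14 in Smo* (SE 0.54, adjusted p = 0.0143 by limma) and -3.45 in WT (SE 0.54, adjusted p = 7.49e-04 by limma), and no P28 library reached any P20 library. Without P28 Smo* replicate 1 the Smo* value was -2.98 with an adjusted p of 0.0615. With P28 Smo* replicate 3 left out of the fit, limma also called Lama2 and Lama1 higher at P28 in WT. Lama2 had a log2 fold change of 0.40 (adjusted p = 0.0475, and 0.108 with all libraries). The scarce Lama1 had one of 2.60 (adjusted p = 0.0217, and 0.165 with all libraries). In Smo*, 2 more genes rose at P28. Nid1 reached a log2 fold change of 0.79 (SE 0.18, adjusted p = 0.0399 by limma) and Lamb2 one of 0.62 (SE 0.15, adjusted p = 0.0437 by limma). No P28 Smo* library overlapped a P20 Smo* library for either gene. Both calls lay near the threshold. Nid1 lost its call when any of 8 of the 12 libraries was left out, with adjusted p up to 0.115. Lamb2 lost its call when any of 11 was left out, with adjusted p up to 0.121. Without P28 Smo* replicate 3, Nid1 was called (log2 fold change 0.89, adjusted p = 0.0219) and Lamb2 was not (0.61, adjusted p = 0.0522). Markers of other cells moved in the same libraries. The 11 endothelial markers summed to 6701 to 8777 normalized counts in P28 Smo* against 5210 to 5848 in P20 Smo*. Of the 11, 7 were higher in every P28 Smo* library and 1 lower. Among all genes tested, 12.2% were higher and 12.1% lower in that way. Of 12 dermal sheath, smooth muscle and pericyte markers, 6 were higher in every P28 Smo* library and 1 lower. Their sums overlapped, at 24570 to 32879 in P28 Smo* against 17879 to 26408 in P20 Smo*. The 8 dermal fibroblast markers summed to 90062 to 120925 in P28 Smo* against 77302 to 87119 in P20 Smo*. Of the 8, 4 were higher in every P28 Smo* library and 1 lower. Immune marker sums were 1182 to 1623 in P28 Smo* against 510 to 1120 in P20 Smo*. Schwann cell marker sums were 967 to 1337 against 556 to 764, but single markers went both ways. Of these 8, 1 was higher in every P28 Smo* library and 2 were lower. The part of these cells in the rise of Nid1 and Lamb2 was not tested.

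Integrin RNA was led by Itgb1, the beta chain that pairs with most alpha chains, and by Itgb5, a partner of Itgav in receptors for vitronectin. Itgb1 made up 53.4% ± 2.54 of the beta chains per kilobase in P20 Smo*, 51.5% ± 2.06 in P20 WT, 57.3% ± 5.82 in P28 Smo* and 61.2% ± 3.19 in P28 WT (SD, n = 3 each). Itgb1 had 16030, 15352 and 14686 normalized counts in P20 Smo* against 16177, 17609 and 18395 in P20 WT, and 19438, 19075 and 15613 in P28 Smo* against 21042, 19309 and 19542 in P28 WT. It passed no test between genotypes or ages. Itgb5 had 8993, 8426 and 9513 in P20 Smo* against 12339, 11652 and 12067 in P20 WT, without overlap (log2 fold change -0.42, SE 0.10, adjusted p = 0.131 by limma), and 8637, 7204 and 8660 in P28 Smo* against 10769, 10119 and 7893 in P28 WT, with overlap.

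Among the alpha chains, WT papillae at P28 differed from the other 3 groups: the receptor chain Itga9 supplied more than all other alpha chains together in 2 of 3 libraries. Itga9 pairs with Itgb1 to bind tenascin C, osteopontin and other ligands. Its share of the alpha chains per kilobase was 18.9%, 27.0% and 9.62% in P28 Smo* against 48.5%, 54.2% and 52.8% in P28 WT, and 13.3% ± 0.466 in P20 Smo* against 12.2% ± 2.12 in P20 WT (SD, n = 3 each). Itga5, the fibronectin receptor chain, held 29.4% ± 5.47 in P28 Smo* and 11.5% ± 0.988 in P28 WT (SD, n = 3 each), although its counts differed less: 4648, 4237 and 5074 normalized counts in P28 Smo* against 3861, 3193 and 3300 in P28 WT. The two-sided exact permutation p for each share at P28 was 0.1, the smallest possible. A share moves when other members of its class move, which the counts of Itga5 show.

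**Figure D2:**
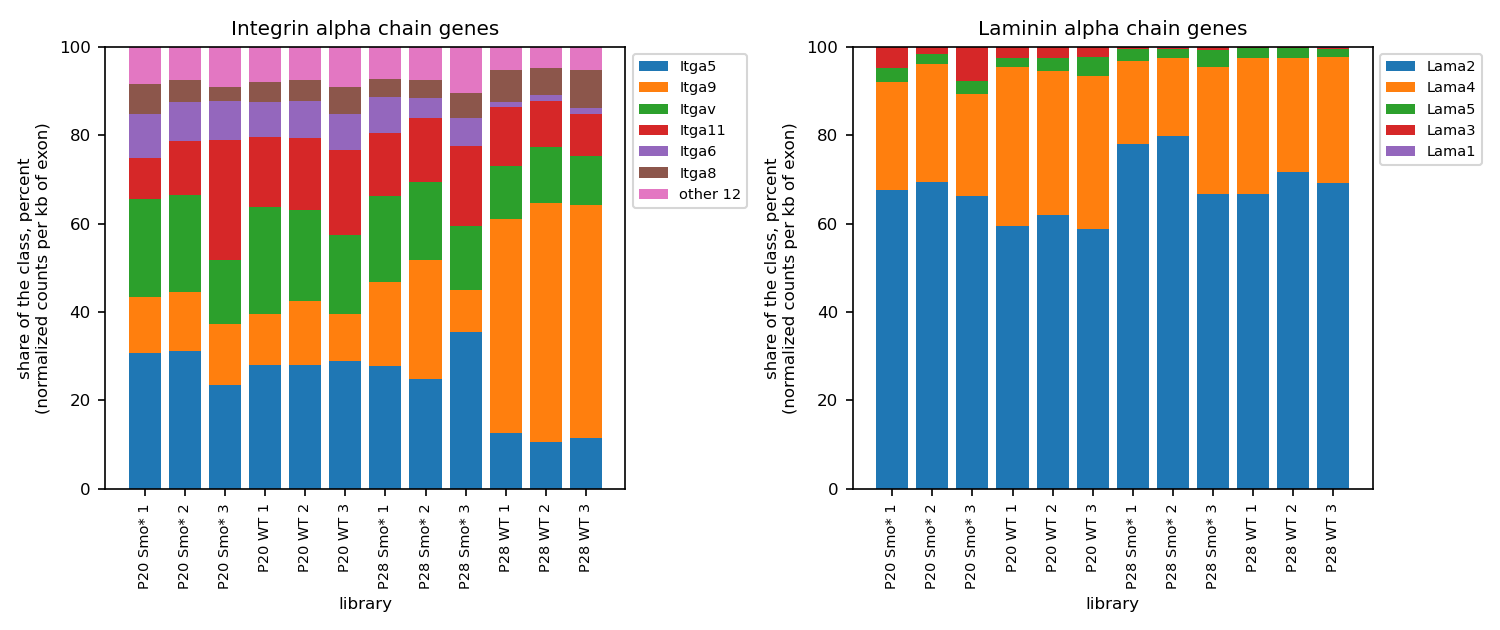
Stacked bars give the percent of a class, per kilobase of exon, held by each integrin alpha chain (left) and laminin alpha chain (right), with 1 bar per library. Itga9 takes 48.5% to 54.2% of the integrin alpha chains in P28 WT and at most 27.0% in any other library, while Lama2 leads the laminin alpha chains in all 12.

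The clearest genotype differences lay in the integrins at P28, where 3 were higher and 3 lower in Smo* than in WT. Limma called 6 of the 34 members tested at P28 (17.6%), against 8.9% of all 14757 genes tested (4.05% higher and 4.85% lower), and all 6 were integrins. Of the members tested, 16 had groups that did not overlap (9 higher and 7 lower in Smo*), against 33.4% of all genes tested (15.6% higher and 17.8% lower), and the members' median log2 fold change was 0.16 against -0.01 over all genes. In bulk libraries such as these, a change in how many cells of a type were collected and a change in RNA per cell cannot be told apart.

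Itga9, at chr9:118606690-118901003 (GRCm38), had the most negative fold change of Smo* over WT at P28 among the members called. It had 4941, 7150 and 2132 normalized counts in the P28 Smo* libraries against 23316, 25620 and 23538 in P28 WT. All 3 Smo* libraries lay far under the WT libraries. The log2 fold change was -2.51 (SE 0.38, adjusted p = 0.00701 by limma), and -2.02 with an adjusted p of 4.15e-04 without P28 Smo* replicate 3, the lowest of them.

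Itga8 and Itga1 were also lower in P28 Smo* than in P28 WT. Itga8, an RGD receptor chain that binds nephronectin and is expressed by mesenchymal cells, had 1047, 1060 and 1202 normalized counts in P28 Smo* against 3383, 2707 and 3724 in P28 WT. The 3 Smo* values lay close together and far under all WT values (log2 fold change -1.56, SE 0.14, adjusted p = 7.37e-04 by limma). Itga1, a collagen receptor chain with preference for collagen IV, had 1192, 1663 and 741 in P28 Smo* against 2382, 2772 and 3018 in P28 WT, also without overlap. Its log2 fold change was -1.25 (SE 0.27, adjusted p = 0.0263 by limma). Itga1 missed the threshold without P28 Smo* replicate 1 (adjusted p = 0.0637) and without P28 WT replicate 1, 2 or 3 (0.0578, 0.102 and 0.104), and passed without P28 Smo* replicate 3 at a log2 fold change of -0.94 (0.0122).

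Itgb4, Itga6 and Itgb8 were higher in P28 Smo* than in P28 WT. Itgb4, at chr11:115974709-116008412 and known as the beta chain of hemidesmosomes, pairs only with Itga6 to bind laminin. Itgb4 had 2658, 1689 and 2966 normalized counts in P28 Smo* against 434, 305 and 385 in P28 WT, a log2 fold change of 2.67 (SE 0.23, adjusted p = 5.78e-04 by limma). Itga6, at chr2:71745616-71858416, which pairs with Itgb1 or Itgb4, had 2477, 1369 and 1675 in P28 Smo* against 652, 854 and 655 in P28 WT. Its log2 fold change was 1.32 (SE 0.22, adjusted p = 0.0117 by limma), and it missed the threshold without P28 WT replicate 3 (adjusted p = 0.0561). Both chains were higher in all 3 Smo* libraries. Itgb8, a partner of Itgav known for activating latent TGF-beta, had 252, 305 and 235 in P28 Smo* against 28.2, 48.7 and 47.9 in P28 WT, a log2 fold change of 2.67 (SE 0.30, adjusted p = 0.00170 by limma). All 6 calls at P28 were also made without P28 Smo* replicate 3 and by edgeR on the recovered reads.

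All 4 laminin-binding chains were higher in every Smo* than in every WT library at P28, as were 15.6% of all genes tested, and 2 of the 4 passed the test. Itga3, which pairs with Itgb1, and Itga7, the laminin receptor chain of muscle, were the other 2, with P28 means of 82.6 ± 8.52 and 595 ± 190 normalized counts in Smo* against 56.8 ± 7.21 and 398 ± 34.3 in WT (SD, n = 3 each). Because Itgb4 and Itga6 are also abundant in keratinocytes, endothelial cells and Schwann cells, marker lists for those cells were read in the same libraries. The 14 keratinocyte markers summed to 591 to 735 normalized counts in P28 Smo* against 1127 to 1348 in P28 WT, and 0 of the 14 were higher in every Smo* library. The 11 endothelial markers summed to 6701 to 8777 in P28 Smo* against 5635 to 6933 in P28 WT. Of the 11, 6 were higher in every Smo* library and 1, Eng, was lower. Among all genes tested, 15.6% were higher and 17.8% lower in that way. Limma called 3 of the 11 higher, against 4.05% of all genes tested. These were Vwf, Pecam1 and Cdh5, the cadherin of endothelial junctions, which averaged 1817 ± 608 normalized counts in P28 Smo* and 94.1 ± 54.4 in P28 WT (SD, n = 3 each). The 8 Schwann cell markers summed to 967 to 1337 in P28 Smo* against 1058 to 1439 in P28 WT. No endothelial marker was at 0 throughout a P28 group. The part of endothelial RNA in the higher P28 Smo* values of Itgb4, Itga6 and Itgb8 was not tested.

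Dermal papilla markers moved with the integrins that were lower in P28 Smo* than in P28 WT. The 14 markers summed to 138334, 214320 and 33882 normalized counts in P28 Smo* against 299845 to 339412 in P28 WT, and limma called 5 of them lower (Rspo4, Corin, Lef1, Alx4 and Prlr) and Sox18 higher. Corin had 4148, 7856 and 751 in P28 Smo* against 69922, 69681 and 79819 in P28 WT. P28 Smo* replicate 3 was the lowest of its group for this sum, for Itga9 and for Itga1, and the highest for Itga8. The part of dermal papilla cell number or state in those values was not tested.

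**Figure D3:**
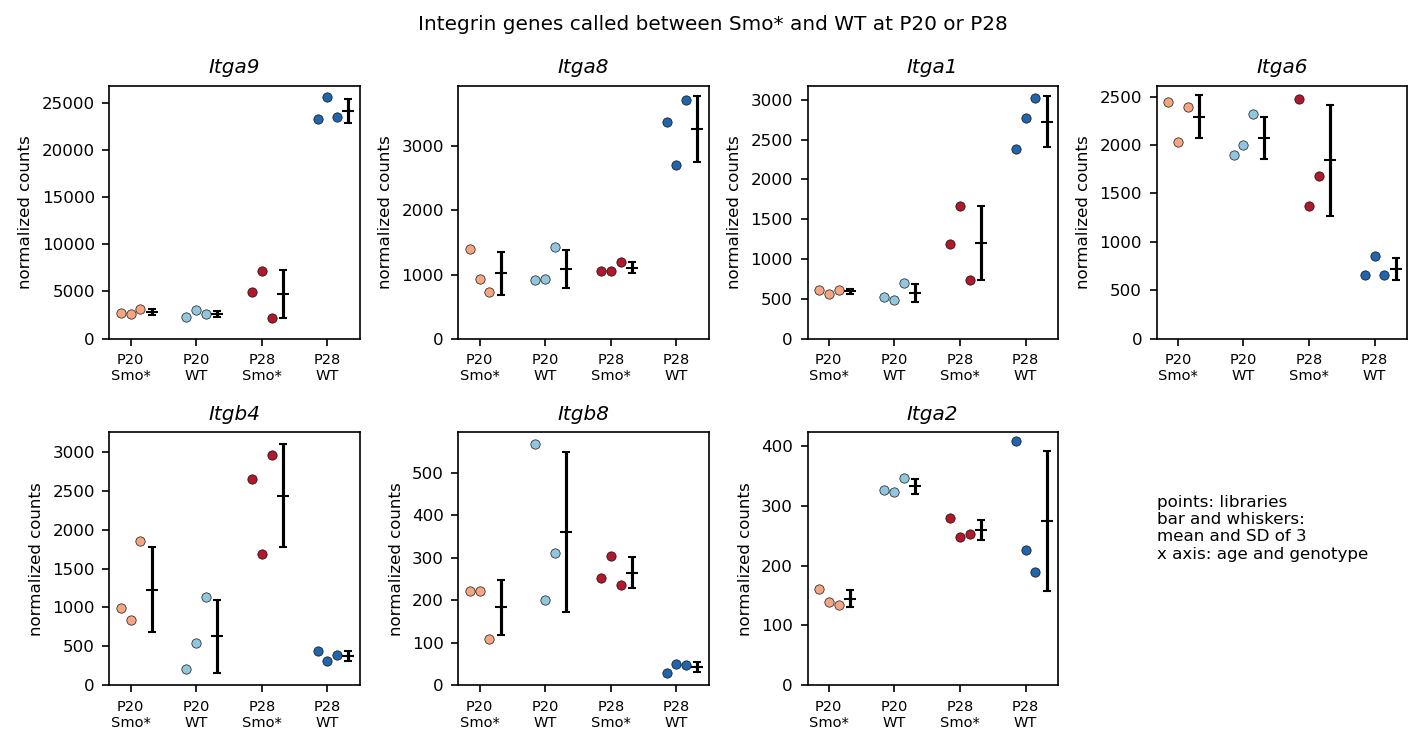
Normalized counts of the 7 integrin genes called between Smo* and WT at P20 or P28, with 1 point per library and the mean with SD of 3 libraries. Itga9, Itga8 and Itga1 are highest in P28 WT, Itga6 and Itgb8 are lowest in P28 WT, and Itga2 separates the genotypes at P20.

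Promoter sequences are shown for 3 integrins called between Smo* and WT at P28: Itga8 and Itga1, lower in Smo*, and Itgb8, higher in Smo*. Their RefSeq (GRCm38.p6) windows are set on starts within 526 bases of the annotated gene start. Each runs 5′ to 3′ on the minus strand, and capitals mark a TCF/LEF match (TCAAAG on either strand). The Itgb8 window is set on a start 526 bases from that of the gene model used for counting.
Itga8 chr2:12301895-12302194: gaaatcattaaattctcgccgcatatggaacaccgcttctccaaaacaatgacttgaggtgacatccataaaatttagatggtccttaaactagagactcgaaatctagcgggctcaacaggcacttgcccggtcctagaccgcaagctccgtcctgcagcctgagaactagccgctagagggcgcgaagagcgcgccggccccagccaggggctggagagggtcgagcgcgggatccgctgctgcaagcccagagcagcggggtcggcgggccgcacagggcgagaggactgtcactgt
Itga1 chr13:115101915-115102214: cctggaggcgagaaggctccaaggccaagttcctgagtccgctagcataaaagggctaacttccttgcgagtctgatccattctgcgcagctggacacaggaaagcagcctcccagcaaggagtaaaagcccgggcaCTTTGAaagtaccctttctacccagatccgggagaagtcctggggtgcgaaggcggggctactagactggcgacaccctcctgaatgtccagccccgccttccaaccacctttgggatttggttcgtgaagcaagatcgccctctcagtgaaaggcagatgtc
Itgb8 chr12:119238227-119238526: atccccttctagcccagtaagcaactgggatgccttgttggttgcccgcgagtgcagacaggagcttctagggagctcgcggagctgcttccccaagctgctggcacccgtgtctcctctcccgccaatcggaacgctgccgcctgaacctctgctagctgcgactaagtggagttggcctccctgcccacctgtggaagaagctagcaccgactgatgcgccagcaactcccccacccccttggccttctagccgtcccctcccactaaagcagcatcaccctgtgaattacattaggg
Windows matched 24 of the 39 genes (27 windows). Of these 27, 0 held the GLI core GACCACCCA on either strand, 5 held TCAAAG and 13 held the GC box GGGCGG, while among all 32851 windows the shares were 0.253%, 16.0% and 35.7%. Of the 3 windows printed, only that of Itga1 held a match, 1 TCAAAG on the opposite strand. A match is a run of letters in the window, and none was tested as a site.

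Other integrins at P28 were not called by limma. Itga5, given above, was higher in all 3 Smo* libraries (log2 fold change 0.43, SE 0.12, adjusted p = 0.0726 by limma, and 0.0206 in the authors' deposited table). Itgb3, the beta chain of the vitronectin and fibrinogen receptors, had 3369, 2633 and 4280 normalized counts in P28 Smo* against 2618, 1562 and 1678 in P28 WT, also without overlap (log2 fold change 0.82, SE 0.24, adjusted p = 0.0726 by limma, and 0.00620 in the authors' deposited table). Itgav, the alpha chain of most RGD receptors, had 7106, 6470 and 4476 in P28 Smo* against 8069, 8286 and 6777 in P28 WT, with overlap. Itga11, a receptor chain for fibrillar collagen, had 2500, 2586 and 2702 in P28 Smo* against 4307, 3261 and 2872 in P28 WT, all lower in Smo* but not called (log2 fold change -0.40, SE 0.16, adjusted p = 0.150 by limma).

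At P20 a single integrin passed the test between genotypes. Limma called 1 of 32 members tested (3.13%), against 0.696% of all 14645 genes tested (0.485% higher and 0.212% lower). That gene was Itga2, at chr13:114833081-114932100, a receptor chain for fibrillar collagen, with 160, 139 and 133 normalized counts in P20 Smo* against 327, 324 and 347 in P20 WT. The groups were tight and far apart, with a log2 fold change of -1.20 (SE 0.16, adjusted p = 0.0225 by limma). The authors' deposited table, which called 2.13% of its genes at P20, also called Itga2 (adjusted p 6.13e-04 there). The call was lost without P20 Smo* replicate 2 (adjusted p = 0.0955) and without P20 WT replicate 1, 2 or 3 (0.0689, 0.107 and 0.0649), at log2 fold changes of -1.17 to -1.22. At P28 Itga2 had 279, 248 and 252 in Smo* against 409, 226 and 189 in WT, a log2 fold change of 0.00. Of the P20 members tested, 9 had groups that did not overlap (1 higher, 8 lower in Smo*), against 16.4% of all genes (8.04% higher and 8.34% lower).

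The 6 integrins called at P28 were not called at P20. Itga9 had 2697, 2616 and 3146 normalized counts in P20 Smo* against 2331, 2976 and 2578 in P20 WT, and Itga8 had 1391, 933 and 725 in P20 Smo* against 907, 922 and 1435 in P20 WT. Itga1 had 607, 559 and 616 in P20 Smo* against 527, 489 and 701 in P20 WT, and Itga6 had 2442, 2035 and 2397 in P20 Smo* against 1895, 2000 and 2316 in P20 WT. These 4 genes overlapped between genotypes. Itgb8 had 221, 221 and 109 in P20 Smo* against 569, 201 and 311 in P20 WT, again with overlap. Itgb4 had 990, 841 and 1855 in P20 Smo* against 200, 542 and 1137 in P20 WT, where 2 of 3 Smo* libraries lay within the WT range (log2 fold change 1.21, SE 0.57, adjusted p = 0.474 by limma). The 8 dermal fibroblast markers summed to 77302 to 87119 in P20 Smo* against 118627 to 127859 in P20 WT. Of the 8, 6 were lower in every P20 Smo* library and 0 higher, against 8.34% and 8.04% of all genes tested. Limma called 1 of the 8 lower, against 0.212% of all genes tested. The part of dermal fibroblast RNA in the lower values of Lamc1, Lama4, Itgb5 and Itga2 was not tested.

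The remaining abundant integrins overlapped between genotypes at P20. Itga5 had 4158, 3921 and 3475 normalized counts in P20 Smo* against 3663, 3642 and 4510 in P20 WT, and Itgav had 6482, 6032 and 4635 in P20 Smo* against 6891, 5833 and 5987 in P20 WT. Itgb3 had 2635, 3660 and 3223 in P20 Smo* against 3118, 2442 and 2905 in P20 WT, and Itga11 had 1321, 1584 and 4149 in P20 Smo* against 2149, 2193 and 3124 in P20 WT. Itga4, a receptor chain for VCAM1 and fibronectin, was higher in each Smo* library, with 268, 263 and 364 in P20 Smo* against 191, 198 and 208 in P20 WT, but was not called (log2 fold change 0.57, SE 0.18, adjusted p = 0.269 by limma).

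Between P20 and P28, limma called 5 integrins in WT and 1 in Smo*, where Itga1 narrowly missed the threshold. In WT, limma called 6 of 34 members tested (17.6%), 5 of them integrins, against 25.4% of all 14790 genes tested (13.5% higher and 11.9% lower). Without P28 Smo* replicate 3, limma called 9 in WT, adding Lama1, Lama2 and Itgal. Itgal had a log2 fold change of 2.25 there (adjusted p = 0.00954, and 0.0994 with all libraries). In Smo* it called 4 of 34 (11.8%), 1 of them an integrin, against 3.46% of all genes (1.98% higher and 1.47% lower). Groups did not overlap for 14 members in WT (9 higher, 5 lower at P28), against 45.1% of all genes (23.6% higher and 21.6% lower), and for 11 in Smo* (8 higher, 3 lower), against 24.4% (12.2% higher and 12.1% lower). In WT at P28 Itga9 rose by 3.21 on the log2 scale (SE 0.31, adjusted p = 3.21e-05 by limma), Itga1 by 2.26 (SE 0.24, adjusted p = 5.54e-05) and Itga8 by 1.61 (SE 0.23, adjusted p = 4.60e-04). Itgb8 fell, with a log2 fold change of -2.995 (SE 0.38, adjusted p = 2.25e-04), and so did Itga6, with one of -1.53 (SE 0.19, adjusted p = 2.01e-04). These 5 and Lama3 were called with any 1 of the 12 libraries left out. Their P28 and P20 libraries did not overlap, as the values above show. Dermal papilla markers moved with them in WT, with a sum of 299845 to 339412 normalized counts at P28 against 49053 to 73816 at P20 and 9 of 14 called higher, and their part in these changes was not tested.

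In Smo* the same 5 integrins did not pass between P28 and P20, and the integrin that did was Itga4. Itga4 fell, with 190, 187 and 169 normalized counts in P28 Smo* against 268, 263 and 364 in P20 Smo* (log2 fold change -0.70, SE 0.17, adjusted p = 0.0480 by limma), and in WT had 153, 152 and 180 at P28 against 191, 198 and 208 at P20. Leaving out any 1 of the 12 libraries ended the Smo* call, with adjusted p from 0.0593 to 0.162. For Itga9 the P28 Smo* libraries straddled the P20 Smo* range, with replicates 1 and 2 higher and replicate 3 lower (log2 fold change 0.59, SE 0.31, adjusted p = 0.287 by limma). Itga1 had 1192, 1663 and 741 in P28 Smo* against 607, 559 and 616 in P20 Smo*, without overlap. Its log2 fold change was 0.94, just short of a call (adjusted p = 0.0517 by limma). Without P28 Smo* replicate 3, Itga9 and Itga1 were called higher in P28 Smo*, with log2 fold changes of 1.08 (adjusted p = 0.00223) and 1.24 (adjusted p = 0.00199). The calls in Smo* then numbered 4, with 2 of them shared with the calls from all libraries.

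**Figure D4:**
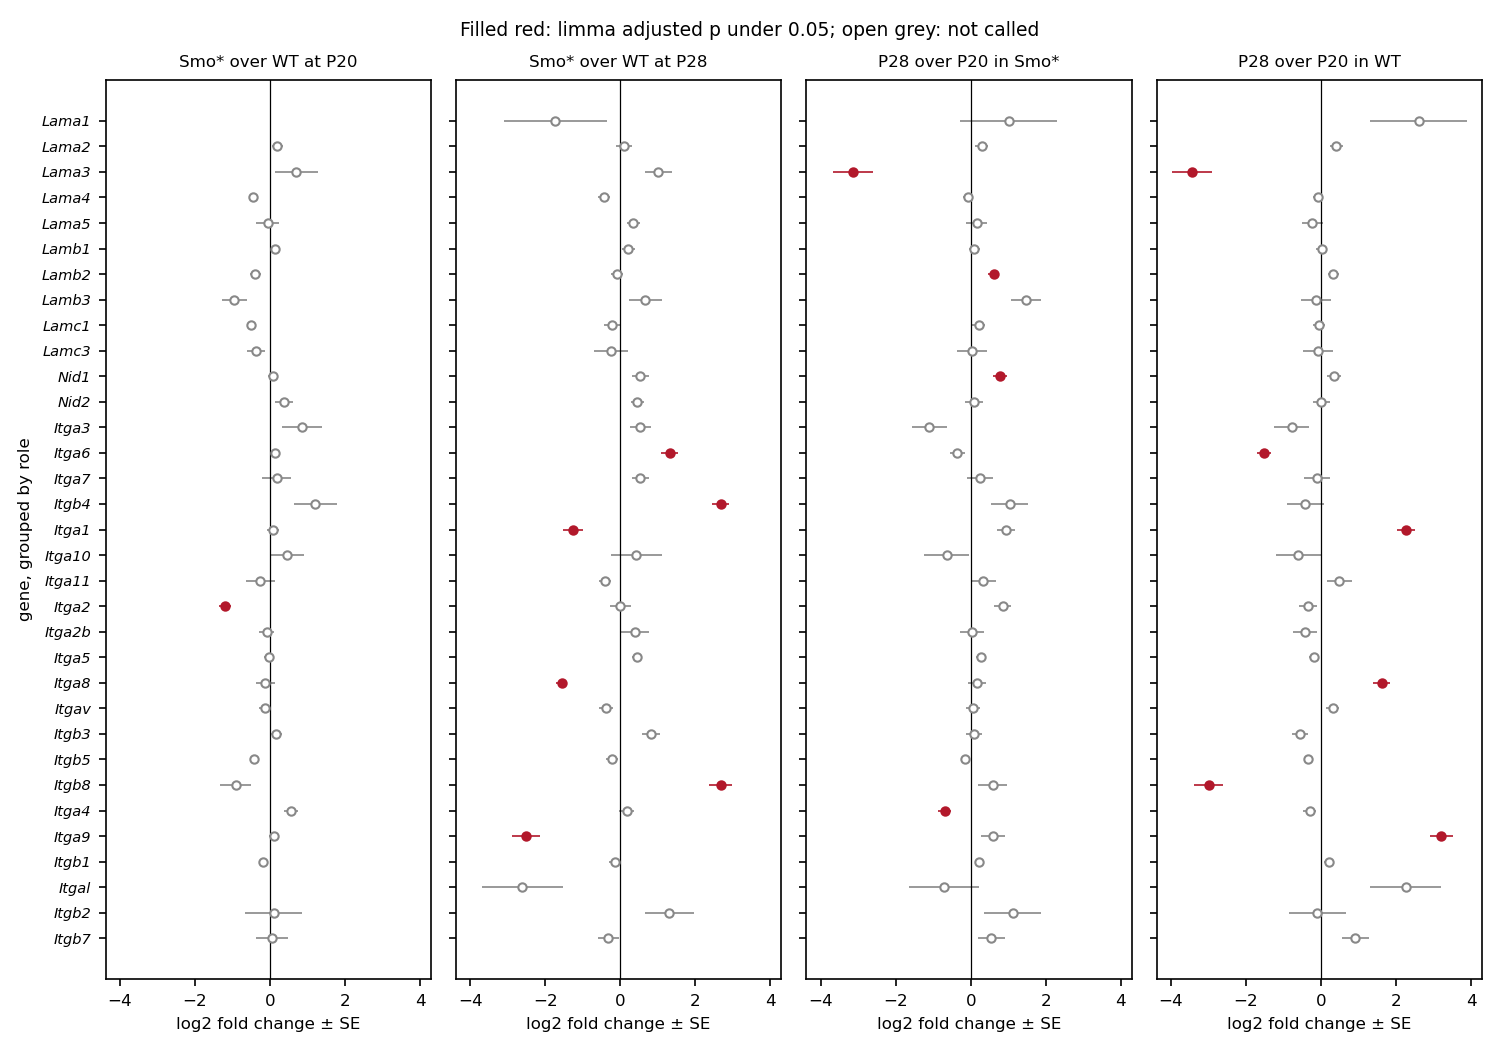
Log2 fold change with SE from limma for the laminin, nidogen and integrin genes shown, grouped by role, in the 4 comparisons; filled red points passed an adjusted p of 0.05 and open grey points did not. Itga9, Itga8 and Itga1 lie left of 0 for Smo* over WT at P28 and right of 0 for P28 over P20 in WT, and Itga6 and Itgb8 lie on the opposite sides. These comparisons share the P28 WT libraries.

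The genotype effect itself differed between the ages for 5 integrins. In a single limma fit of all 12 libraries, the Smo* over WT difference at P28 minus that at P20 was called for 5 of 34 members tested (14.7%), against 4.72% of all genes (1.89% positive and 2.83% negative). It was positive for Itgb8, at 3.58 (SE 0.54, adjusted p = 0.00401), and for Itga6, at 1.17 (SE 0.27, adjusted p = 0.0328). It was negative for Itga9, at -2.62 (SE 0.44, adjusted p = 0.00716), for Itga8, at -1.44 (SE 0.33, adjusted p = 0.0297), and for Itga1, at -1.32 (SE 0.34, adjusted p = 0.0447). Itgb4 was called at P28 and not at P20, yet the difference of 1.46 was not called (SE 0.70, adjusted p = 0.250 by limma). For Itga2 the difference of 1.20 was not called either (SE 0.34, adjusted p = 0.0620). The Itgb8 and Itga9 calls were made with any 1 library left out, whereas those of Itga8, Itga6 and Itga1 were lost in 5, 6 and 8 of the 12 cases.

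Members with low counts are given by range. Itga2b, the platelet integrin chain, had 173 to 479 normalized counts per library while 5 platelet markers together summed to at most 80.3. Itga3 had at most 369, Itga7 had 244 to 808 and Itga10, a cartilage collagen receptor chain, 11.8 to 65.7. Lama1, the alpha chain of embryonic basement membranes, had 0 to 54.3, and Itgb6, an epithelial chain, 0 to 11.1. The leukocyte integrins were scarce, with Itgad, Itgae, Itgam and Itgax at most 18.2, Itgal at most 44.4, Itgb2 at most 62.0 and Itgb7 at most 108 in any library. Itgal was listed between 0 and 16.1 in P28 Smo* against 23.8 to 44.4 in P28 WT. Limma did not call it, and the authors' deposited table did (adjusted p 0.0498 there). Lamb3 had 24.4 to 149. Itgad, Itgae, Itgam, Itgax and Itgb6 were under the minimum for testing in every comparison, and Lama1 and Itgal at P20.

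Genes that work with laminins and integrins were read beside the 8.9% of all genes that limma called at P28. Of 29 other basement membrane genes tested, limma called 7 higher and 1 lower in P28 Smo*. The strongest calls by adjusted p were Smoc1, a secreted calcium-binding protein that was lower (log2 fold change -1.31, SE 0.12, adjusted p = 6.97e-04), and Frem2, of the complex that anchors epithelium to dermis, which was higher (2.74, SE 0.26, adjusted p = 8.03e-04). Of 30 integrin adaptor genes tested, 3 were higher and 3 lower at P28, led by Vcl, which links integrins to actin through talin and was lower (-0.86, SE 0.11, adjusted p = 0.00354). Of 18 other integrin ligands tested, 4 were higher and 3 lower, led by Edil3, an RGD protein that was lower (-2.66, SE 0.14, adjusted p = 1.06e-04).

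At P20, where limma called 0.696% of all genes, it called 1 of 29 basement membrane genes, 1 of 30 adaptors and 0 of 19 other ligands. Smoc1 was higher in Smo* (log2 fold change 1.47, SE 0.21, adjusted p = 0.0290 by limma), and the authors' deposited table called 1 basement membrane gene. The kinase Src was lower (-0.73, SE 0.12, adjusted p = 0.0446 by limma), and the authors' deposited table called 3 adaptors. Of the other ligands, 5 were at an unadjusted p under 0.05, and edgeR and the authors' deposited table called 0.

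Between the ages, limma called 7 of 29 basement membrane genes higher and 5 lower in WT at P28, 6 of 30 adaptors higher and 5 lower, and 4 of 19 ligands higher and 3 lower, where 25.4% of all genes were called. In WT Edil3 rose by 3.35 on the log2 scale (SE 0.36, adjusted p = 6.46e-05), Smoc1 by 1.89 (SE 0.18, adjusted p = 2.72e-05), Emilin1, a matrix protein of elastic fibres, by 1.11 (SE 0.13, adjusted p = 9.28e-05) and Vcl by 1.02 (SE 0.10, adjusted p = 3.20e-05). In Smo* it called 4 basement membrane genes higher and 1 lower, 1 adaptor higher, and 1 ligand higher and 1 lower, where 3.46% of all genes were called. There Frem2 rose by 3.11 (SE 0.50, adjusted p = 0.0130), Edil3 by 1.76 (SE 0.36, adjusted p = 0.0270) and Kank1, a talin-binding protein, by 0.89 (SE 0.14, adjusted p = 0.0124), while Smoc1 fell, with a log2 fold change of -0.89 (SE 0.18, adjusted p = 0.0258). The direction for Smoc1 was thus up in WT and down in Smo* between P20 and P28.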

How the data were processed

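The authors deposited, for each age, a table of normalized read counts (unit: signal) for 25887 genes in 6 libraries. Division of counts by 1 size factor per library was read from the deposited values: in every library 100% were whole reads within 0.01 reads. The deposited mean equals the mean over all 12 libraries, so the libraries were normalized together. The deposited tables also hold log2 fold changes (WT over Smo*, by the authors), their standard errors, a test statistic (a score), a p-value and an adjusted p-value. Per the submitters' processing notes, GRCm38.p4 and mm10 were the builds and the tools were DESeq2, HTSeq, Trimmomatic and TopHat2 (version 2), listed without roles. The kit marks the strand, per the labels' protocols, but the sources used here do not state whether counting used it. Reads of genes whose exons overlap a member, such as B230344G16Rik at Itgb4, E030013I19Rik at Itga8 and Gm49395 at Itga1, may therefore be joined to it.

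Symbols, coordinates and exon lengths came from GENCODE M21 (GRCm38), which named 25562 of the identifiers. Columns were matched to samples through the number in each title, leaving 0 unused; replicate numbers follow accession order and pair nothing. The members and all gene lists were chosen with earlier results of these data known. Values were given in every library for members called in any comparison or with a mean of at least 1000, and list genes were named by adjusted p, up to 4 per comparison. Values of 1 member are not reported here. The dermal papilla and endothelial markers were named after their values were seen.

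Each genotype comparison was tested on log2(value + 1) with limma (version 3.58.1, mean-variance trend, R 4.3.3) in the 6 libraries of that age. The comparisons between ages and the difference of the genotype effect used 1 fit of all 12 libraries. Genes with a mean of at least 10 entered, and Benjamini-Hochberg adjustment over all of them was read at 0.05. Fold changes on this scale understate those of low genes. Adjusted p-values are limma's unless another source is named. Alternatives were TMM scaling, filters, pseudocounts, edgeR's quasi-likelihood test (version 4.0.16) on reads recovered from the values, robust empirical Bayes, the authors' adjusted p-values and leaving out each library. Scripts were tested on simulated data.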

Additional observations from a re-analysis of the deposited data

Results flagged for a closer look

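For 5 integrins the genotype effect differed between the ages by a test of the difference itself, the interaction term of limma over all 12 libraries. The difference, P28 minus P20, of the log2 fold change of Smo* over WT was -1.44 for Itga8, 3.58 for Itgb8, -2.62 for Itga9, -1.32 for Itga1 and 1.17 for Itga6. Age, sex and hair stage differ together between the ages, and the hair stages of Smo* and WT also differ at P28, so these cannot be told apart.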

How the results depend on the processing

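Of 22 calls (a member in a comparison), 168 of 173 values under other settings were still called, 5 were not and 0 changed direction. The 5 were those of Itga4, Lamb2 and Nid1 for P28 over P20 in Smo* with no filter on low values, and of Itga1 for the difference of the genotype effect with no filter and by edgeR. The number of members called at P20 was 1, and became 2 with robust empirical Bayes and 2 by the authors' adjusted p-values. At P28 it was 6, and 11 by the authors' adjusted p-values. For P28 over P20 in Smo* it was 4, and 1 with no filter. For the difference of the genotype effect it was 5, and 8 with a z value from the separate fits. The cause of these changes was not tested. With 1 library left out, 162 of 222 values were still called, and the counts ranged from 0 to 2 at P20, from 4 to 7 at P28, from 6 to 9 for P28 over P20 in WT, from 0 to 4 for P28 over P20 in Smo* and from 2 to 6 for the difference. The lowest counts came at P20 without Smo* replicate 2 or any WT replicate (0 each), in Smo* without P28 Smo* replicate 1 (0), and for the difference without P20 Smo* replicate 2, P20 WT replicate 2 or P28 WT replicate 3 (2 each). The count in WT reached 9 without P28 Smo* replicate 3 or P28 WT replicate 1. No paired analysis was possible because the numbers in the sample titles are shared by no groups and the replicate numbers follow accession order only. Chain shares moved when not divided by length, with Itga5 at 20.1% in P28 Smo* and 7.40% in P28 WT and Lamb1 at 63.5% in P20 Smo* and 54.7% in P20 WT. Genes with few reads, such as Itgal and Lama1, have wide errors at this depth.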
